A study of Mus musculus with 3 samples.

Results

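The genes described here are homeobox genes outside the Hox clusters, measured in the mouse ureter at embryonic day 15. Members were chosen by gene symbol alone: every probe set that names exactly 1 gene of the Meis, Pbx, Irx, Tgif, Lhx, Isl, Dlx, Msx, Emx, Nkx, Hmx, Barx, Prrx, Alx, Pitx, Pax, Shox, Meox, Cux or Zfhx families. This gave 140 probe sets of 74 genes in 20 families, out of 18194 named genes on the array. The samples form 1 group of 3 (replicates 3, 8 and 9), ureters of wild-type FVB/N embryos of unknown sex at Theiler stage 23, cut free between renal pelvis and bladder. Per the labels the samples were not pooled, but whether different embryos or litters gave them is not said, and their spread may therefore be technical. Total RNA went through 2 rounds of amplification and was hybridised to 1-colour Affymetrix Mouse Genome 430 2.0 arrays. With 1 group there was no contrast to test, and all values below are levels with their spread over the 3 arrays.

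Homeobox genes encode transcription factors that bind DNA through a homeodomain, a small helical fold, and many of them set regional identity in the embryo. TALE proteins (Meis, Pbx, Irx and Tgif) carry a longer loop between helices of that domain, and Meis and Pbx proteins bind DNA together with Hox proteins. LIM proteins add a pair of zinc-finger-like LIM domains, Pax proteins a paired domain, and Cux proteins cut repeats. In Pax1 and Pax9 the paired domain stands without a homeodomain, so these members belong to the families by name and not by that fold. The ureter is a tube of urothelium wrapped in mesenchyme that forms smooth muscle and connective tissue, and it develops beside the kidney, gonad and body wall.

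For a gene with several probe sets, the one whose log2(signal + 1) was highest on average stood for the gene. It was called above background where it exceeded, on every array, the 95th percentile of a reference list, 54 measured genes specific to 10 other organs that include retina, testis and lens. The resulting line was at 990, 455 and 647 in replicates 3, 8 and 9. It rested on few genes: Rpgrip1 and Tff1 of the list were themselves above it on all 3 arrays, and Iyd was at 1579 in replicate 3 against 243 and 378 elsewhere. The 90th percentile of the same list lay at 237, 281 and 404. Of the marker lists, 3 of 4 ureteric mesenchyme genes (Tbx18, Tshz3 and Ptch1), 6 of 9 urothelial genes and 2 of 6 smooth muscle genes were above background, among them Upk1b at signals of 2544, 1816 and 938 and Acta2 at 32411, 27441 and 35287 in replicates 3, 8 and 9. Upk2 was at 156, 71 and 70. Markers of other tissues were above background too, for 6 of 7 skeletal muscle genes, all 4 measured hepatocyte genes, all 4 measured erythroid genes and 3 of 5 measured neuron and neural crest genes. In bulk tissue of this kind, fewer cells of a type and less RNA per cell cannot be told apart.

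Of the 74 homeobox genes, 17 were above background on all 3 arrays (23%), against 44.7% of all named genes. A further 2 were above it on 2 arrays, 6 on 1 array and 49 on none. The 17 genes came from 11 families, and the other 9 families (Alx, Barx, Dlx, Emx, Hmx, Lhx, Msx, Nkx and Pitx) had no member above background on every array. By class, among these 74 members, 7 of 14 TALE genes were above background, 1 of 10 LIM genes, 3 of 15 paired and paired-like genes, both Meox genes, both Cux genes of the cut class, 2 of 3 zinc finger homeobox genes and 0 of 28 NK-like genes. The counts cover only families chosen by symbol, and further genes of these classes are in the list of other homeobox genes below. With the 90th percentile as the line, 25 of the 74 passed (33.8%) against 57.7% of all named genes. The 8 genes between the lines were Alx1, Dlx5, Emx2, Irx2, Irx5, Nkx2-3, Prrx2 and Zfhx2. Members not above background on any array had mean signals from 14.4 to 452, with a median of 127.

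**Figure D1:**
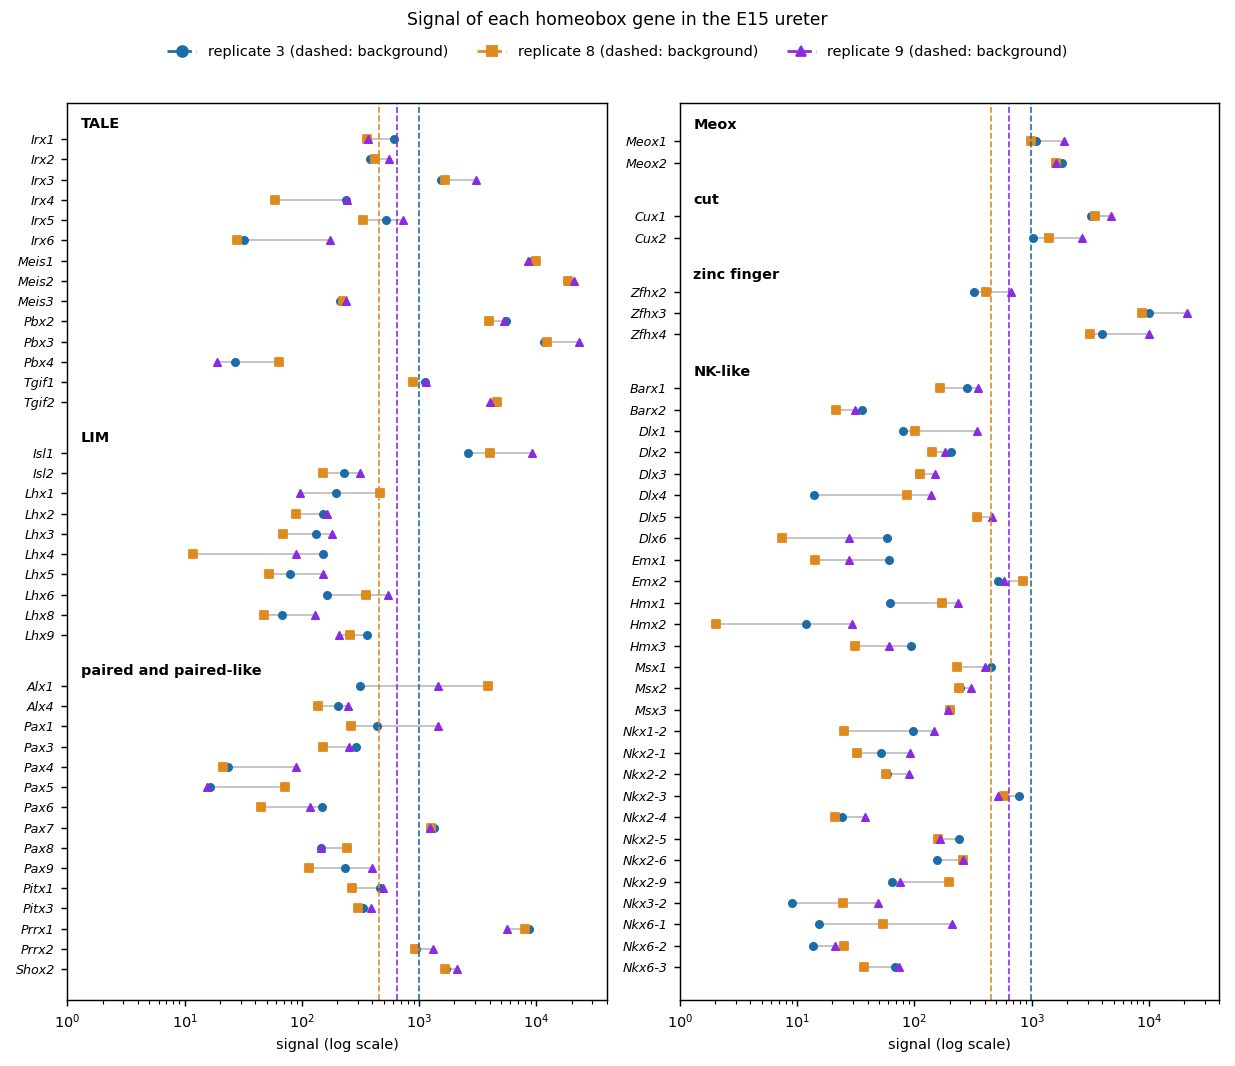
Signal of the probe set that represents each of the 74 homeobox genes on each array (log scale), grouped by class, with grey lines from the lowest to the highest array and dashed lines at the background level of each array (990, 455 and 647). All 28 NK-like genes lie left of an array's own line on at least 1 array, whereas Meis1, Meis2, Pbx2, Pbx3, Prrx1 and Zfhx3 lie right of all of them on every array.

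**Figure D2:**
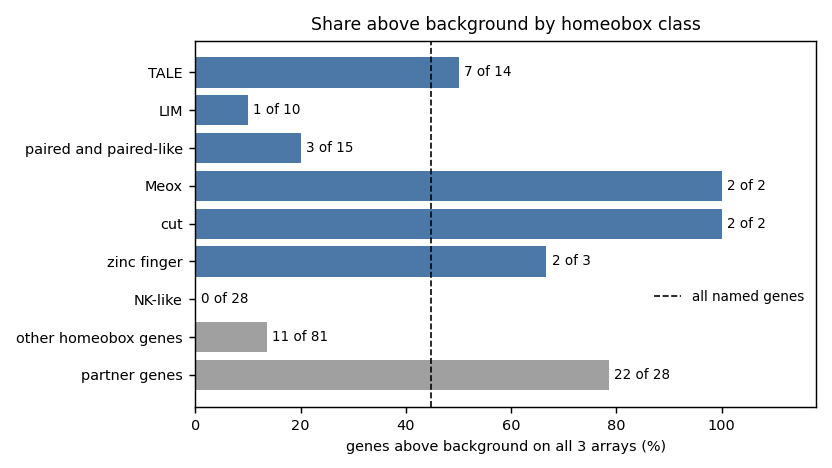
Percent of genes above background on all 3 arrays among the members of each homeobox class (blue), in the list of other homeobox genes and in the list of partner genes (grey), with counts beside the bars. The dashed line is the share of all named genes, 44.7%.

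Within the TALE class, the Meis genes were split between paralogs. Meis1 had signals of 9157, 10003 and 8433 in replicates 3, 8 and 9 (mean 9198 ± 786, SD, n = 3, as for all means below). Meis2 had signals of 18347, 18439 and 20784 (19190 ± 1381). Meis3 had signals of 211, 223 and 238 (224 ± 13.5) and was below background on every array. The 3 arrays thus lay close together for the representing probe set of each gene, with ranges on the log2 scale of 0.25, 0.18 and 0.17. Other probe sets varied more, with ranges of 0.83 and 1.19 for Meis1 and from 0.24 to 2.61 for Meis2. For Meis2, 3 of 4 probe sets were above background and for Meis1 2 of 3, while Meis3 has 1 probe set.

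The sequence upstream of the Meis and Isl genes is shown because in both families 1 paralog was below background on every array while others were above it. Each stretch is the 250 bases before the gene's start from RefSeq (GRCm38.p6), 5′ to 3′ on the gene's own strand, with CG dinucleotides in capitals. They lie at chr11:19018970-19019219 (minus strand) for Meis1, chr2:116064620-116064869 (minus strand) for Meis2, chr7:16175145-16175394 (plus strand) for Meis3, chr13:116309689-116309938 (minus strand) for Isl1 and chr9:55540899-55541148 (plus strand) for Isl2.
Meis1: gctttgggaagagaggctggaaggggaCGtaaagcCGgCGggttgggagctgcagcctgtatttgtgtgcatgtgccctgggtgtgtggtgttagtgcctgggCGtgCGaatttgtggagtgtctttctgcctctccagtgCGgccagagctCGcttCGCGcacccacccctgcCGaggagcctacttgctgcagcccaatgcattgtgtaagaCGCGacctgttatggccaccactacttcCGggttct
Meis2: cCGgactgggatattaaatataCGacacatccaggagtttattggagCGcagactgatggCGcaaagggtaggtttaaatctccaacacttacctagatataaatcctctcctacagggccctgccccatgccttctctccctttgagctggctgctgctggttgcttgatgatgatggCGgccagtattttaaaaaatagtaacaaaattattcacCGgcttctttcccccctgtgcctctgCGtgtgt
Meis3: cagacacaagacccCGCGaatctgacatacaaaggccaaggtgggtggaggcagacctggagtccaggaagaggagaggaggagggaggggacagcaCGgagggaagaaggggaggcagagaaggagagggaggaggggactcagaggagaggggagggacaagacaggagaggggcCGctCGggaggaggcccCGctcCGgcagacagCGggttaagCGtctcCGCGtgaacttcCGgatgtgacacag
Isl1: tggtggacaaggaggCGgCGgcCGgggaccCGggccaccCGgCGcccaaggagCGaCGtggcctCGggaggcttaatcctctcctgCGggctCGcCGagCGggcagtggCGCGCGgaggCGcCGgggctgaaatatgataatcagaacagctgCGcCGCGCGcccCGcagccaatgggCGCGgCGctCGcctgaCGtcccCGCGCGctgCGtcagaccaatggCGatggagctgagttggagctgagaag
Isl2: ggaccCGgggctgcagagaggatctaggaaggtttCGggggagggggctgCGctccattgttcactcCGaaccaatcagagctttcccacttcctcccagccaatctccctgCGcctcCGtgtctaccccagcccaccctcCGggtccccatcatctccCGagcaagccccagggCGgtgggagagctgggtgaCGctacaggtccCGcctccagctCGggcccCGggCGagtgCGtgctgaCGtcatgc
The stretch of Meis2 holds 7 CG dinucleotides, that of Meis1 13 and that of Meis3 12. Isl1 has 33 and Isl2 16. Of these 5 stretches, only that of Meis2 holds TATAAA on either strand.

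Of the Pbx genes, whose products are partners of Hox and Meis proteins, Pbx2 and Pbx3 were above background and Pbx4 was not. Pbx2 had signals of 5466, 3979 and 5254 (4900 ± 804), and all 3 of its probe sets were above background. Pbx3 had signals of 11641, 12383 and 23252 (15759 ± 6500), with replicate 9 highest and a range from replicate 3 to replicate 9 of 0.998 on the log2 scale. Its other probe set was also highest in replicate 9, at 1804, 2097 and 2562. Pbx4 had signals of 27, 64 and 19.

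Both Tgif genes, which encode repressors that act with Smad proteins, were above background. Tgif2 had signals of 4526, 4639 and 4025 (4397 ± 327), while its other probe set was at 10.7, 10.3 and 19.65, below background throughout. Tgif1 had signals of 1133, 883 and 1152 (1056 ± 150), and its value in replicate 3 exceeded the background level of 990 by little.

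Among the Iroquois genes, which pattern the nervous system, heart and nephron, Irx3 was above background on all arrays, with signals of 1536, 1659 and 3031 (2075 ± 830). Irx5, which lies next to Irx3, had signals of 522, 334 and 735 (530 ± 201) and passed on replicate 9 alone. Irx6, the last gene of that cluster, had signals of 32, 28 and 175. In the other Iroquois cluster, Irx1 had signals of 606, 360 and 364, Irx2 381, 419 and 556, and Irx4 237, 59 and 245, all below background. All of the Irx genes have 1 probe set each, so none could be checked against another. The nephron epithelium markers Nphs1, Umod, Slc12a1 and Lrp2 were below background on every array, with signals up to 292, while Hnf4a of that list was at 7540, 3236 and 6701.

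Isl1 was the LIM gene above background. It encodes a factor of motor and sensory neurons, heart progenitors and mesenchyme around the bladder and genital tubercle. Its signals were 2627, 4017 and 9128 (5257 ± 3423), a range of 1.80 on the log2 scale with replicate 9 highest. The other Isl1 probe set gave 158, 774 and 2001, in the same order of arrays. Of the 5 measured neuron and neural crest genes, 4 were also highest in replicate 9, and 2 had the Isl1 order of arrays. Those 2 were Stmn2, a neuronal gene, at 1425, 5676 and 6761, and Th, the tyrosine hydroxylase gene of sympathetic neurons, at 366, 1036 and 1058. Elavl4 was highest in replicate 8 (1501, 1827 and 1543), and the neural crest and glial genes Sox10 (307, 206 and 632) and Erbb3 (4116, 3251 and 4386) were lowest there. The summed signal of the 5 genes, 7716, 11997 and 14379, thus followed Stmn2 in the main. Of the 3 above background, 2 were highest in replicate 9, against 28.3% of all genes above background. Summed signals were also highest in replicate 9 for the epidermis list (10537, 8166 and 11847, 3 of 4 genes highest there). The same held for the macrophage (19231, 11440 and 25558, 1 of 4) and smooth muscle lists (39242, 35742 and 39548, 1 of 6). In these lists 0 genes had the Isl1 order. The part of any of these lists in the Isl1 difference was not tested. Isl2, its paralog, had signals of 230, 153 and 312, all below background.

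None of the 8 Lhx genes passed on every array, and 7 passed on none, with mean signals of those 7 from 81.5 to 355. Lhx1, a gene of nephric duct and early nephron, had signals of 194, 463 and 97, so that replicate 8 just exceeded the background level of 455 and the other arrays did not. Its other probe set was at 9.81, 61.1 and 34.5, also highest in replicate 8. Lhx9 and Lhx2, which act in gonad and in forebrain and limb, had means of 274 ± 77.6 and 134 ± 39.5.

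Prrx1, Shox2 and Pax7 were the paired and paired-like genes above background. Prrx1, a gene of limb, body wall and connective tissue mesenchyme, had signals of 8732, 7962 and 5592 (7429 ± 1636). Its paralog Prrx2 had signals of 933, 918 and 1316 (1055 ± 226) and missed the line in replicate 3 alone. Shox2, which acts in limb and heart, had signals of 1684, 1667 and 2093 (1815 ± 241). The other Shox2 probe set was at 4.12, 9.49 and 67.95, below background throughout. Pax7, a gene of skeletal muscle progenitors, had signals of 1352, 1271 and 1228 (1284 ± 63), the smallest range of the 17 (0.14). Its other probe set was at 86.8, 86.6 and 22.4. The skeletal muscle list, which does not contain Pax7, had summed signals of 71409, 62293 and 60482, with 4 of its 7 genes highest in replicate 3. Of its 6 genes above background 3 were highest there, against 35.0% of all genes above background. Myf5 was its gene below background on every array. Summed signals were also highest in replicate 3 for the hepatocyte (4 of 4 genes highest there), endothelium (4 of 4), erythroid (3 of 4) and gut epithelium (3 of 4) lists. The gonad and adrenal (3 of 4), nephron epithelium (3 of 5) and kidney stroma (1 of 2) lists did likewise. The part of the skeletal muscle list in the Pax7 signal was not tested.

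Pax3, the paralog of Pax7, had signals of 289, 153 and 253, and Pax8, a gene of the nephric lineage, 146, 243 and 147, all below background. Pax1 had signals of 433, 264 and 1451, above background in replicate 9 alone. Its other probe set, at 50.84, 22.15 and 29.38, was below background throughout and highest in replicate 3. Of the 5 cartilage genes, only Col2a1 was highest in replicate 9 too (281, 188 and 396, all below background). Lowest there were Col9a1 (4887, 7552 and 4433), Hapln1 (1188, 1975 and 916) and Matn1 (142, 303 and 141). Acan was highest in replicate 3. Their part in the Pax1 signal was not tested. Pax9 had signals of 233, 115 and 394. Pax4, Pax5 and Pax6, which act in the islet, the B cell and the eye, had means of 44.6, 34.8 and 103.

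Alx1 showed the largest range of any member that passed the line on some array. Its signals were 313, 3871 and 1438, a range of 3.62 on the log2 scale, with replicate 8 highest and replicate 3 below background. The other Alx1 probe set, at 136, 210 and 105, was below background throughout but also highest in replicate 8. Tbx18, a ureteric mesenchyme marker, was likewise highest in replicate 8 (7828, 20079 and 7442), as were 3 of the 4 genes of its list (summed signals of 22289, 43978 and 23636), with Foxf1 the exception. Summed signals were also highest in replicate 8 for the nephron progenitor list (7292, 11723 and 6581, 4 of 5 genes highest there), the cartilage list (7064, 10226 and 6110, 3 of 5), the collecting duct and ureteric tip list (2475, 4582 and 1934, 3 of 5) and the urothelial list (16719, 20912 and 17075, 4 of 9). Osr1, Col2a1, Acan, Wnt11, Upk1a and Krt5 of these lists were lowest in replicate 8. Their part in the Alx1 difference was not tested. Its paralog Alx4 had signals of 202, 136 and 249. The Pitx genes, which act in hindlimb and eye among other tissues, were below background with means of 405 ± 121 for Pitx1 and 339 ± 43.3 for Pitx3.

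The Meox genes, which encode factors of the somite and its derivatives, were both above background. Meox2 had signals of 1822, 1616 and 1624 (1687 ± 117), from a probe set ending in _s_at, a suffix for probes that can match several transcripts. Its other probe set, at 634, 564 and 477, passed on replicate 8 alone. Meox1 had signals of 1081, 988 and 1877 (1315 ± 489), with replicate 9 highest.

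Cux1 and Cux2, genes of cut repeat repressors, were above background as well. Cux1 had signals of 3217, 3444 and 4725 (3795 ± 813), although 2 of its 9 probe sets were above background. Cux2 had signals of 1030, 1404 and 2696 (1710 ± 874), a range of 1.39, and 1 of its 3 probe sets passed. Its value in replicate 3 lay nearest to the background level among the 17 genes. The zinc finger homeobox genes encode very large proteins with several homeodomains. Zfhx3 had signals of 9997, 8816 and 21064 (13293 ± 6756), and Zfhx4 3956, 3156 and 10047 (5720 ± 3769). In both, replicate 9 was highest and replicate 8 lowest, with ranges of 1.26 and 1.67. Zfhx2 had signals of 325, 408 and 666 (467 ± 178) and passed on replicate 9 alone.

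None of the 28 NK-like members was above background on all arrays, and 26 of the 28 were above it on none. Emx2, which is needed for the urogenital epithelium, had signals of 512, 848 and 586 (649 ± 176) and passed on replicate 8. Nkx2-3, a gene of gut and spleen mesenchyme, had signals of 776, 583 and 518 (626 ± 134) and also passed on replicate 8. Dlx5 was the other NK-like gene above the 90th percentile line on every array, at 340, 340 and 458. The other Dlx genes, known for craniofacial, limb and forebrain development, had means from 31.3 to 176. Msx1, Msx2 and Msx3, targets of BMP signalling in many tissues, had means of 361 ± 114, 263 ± 35.1 and 198 ± 4.61. The 11 Nkx genes that were on no array above background ranged from 20.0 to 227, among them the cardiac gene Nkx2-5 (189 ± 45.2) and the thyroid and lung gene Nkx2-1 (58.5 ± 29.8). The Hmx genes had means from 14.4 to 157, and Barx1 and Barx2 were at 266 ± 94.0 and 29.6 ± 7.46.

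The 17 genes above background differed between arrays in one direction more than in others. Replicate 9 was the highest array for 11 of the 17, against 28.3% of all 8134 genes above background, while 4 were highest in replicate 3 (35.0% of all) and 2 in replicate 8 (36.7%). Their median deviation from the mean of the 3 arrays was 0.21 on the log2 scale in replicate 9, where the median over all genes above background was -0.06. A range of at least 1 was found in 4 of the 17 (Cux2, Isl1, Zfhx3 and Zfhx4), against 12.4% of all genes above background. All 4 were highest in replicate 9, against 26.7% of all genes above background with such a range. Without replicate 9 none of the members above background had a range of at least 1. These 4 genes were already highest on that array, and a range over fewer arrays tends to be smaller. The same share over all genes was not counted without replicate 9. With no filter on low values, 35 of 74 members had such a range, against 34.6% of all named genes.

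**Figure D3:**
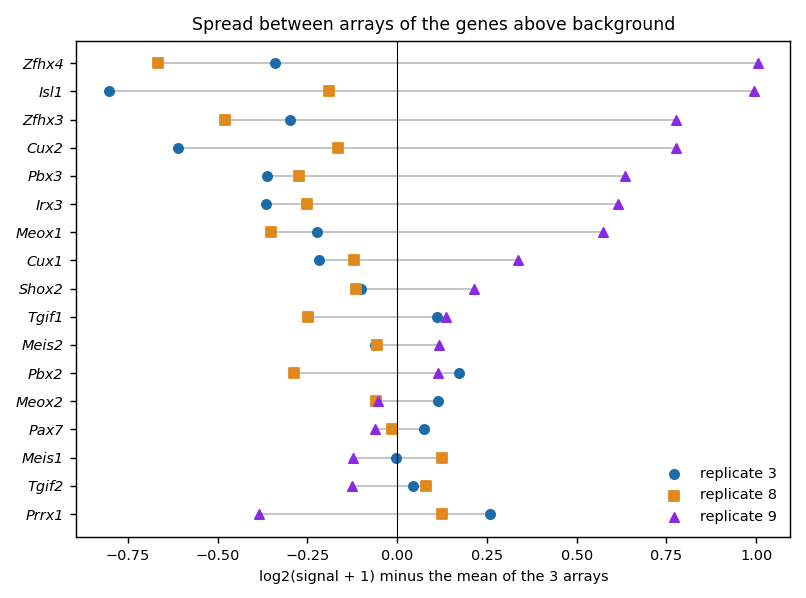
Deviation of log2(signal + 1) on each array from the mean of the 3 arrays, for the 17 homeobox genes above background, sorted by replicate 9. The purple triangles of replicate 9 are the rightmost point for 11 genes, whereas for Prrx1, the bottom gene, replicate 9 is the lowest array.

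At the other end, 5 of the 17 had a range under 0.25: Meis2, Meox2, Pax7, Tgif2 and Meis1. This was 29.4% of the members above background, and 15.7% of all genes above background had so small a range. The median range was 0.55 for the 17 and 0.52 for all genes above background. The control transcripts, which have a probe set at either end, also differed by array: the ratio of 3′ to 5′ signal was 7.45, 6.50 and 4.0 for beta-actin and 10.5, 5.95 and 2.65 for pyruvate carboxylase in replicates 3, 8 and 9. It did not fall steadily for Gapdh (18.9, 15.1 and 16.4), the transferrin receptor (7.67, 9.57 and 7.21) or 18S RNA (1.07, 1.45 and 1.19). The part of 3′ bias in the high values of replicate 9 was not tested.

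Probe sets of the same gene often disagreed on whether the gene was above background. Of the 17 genes, 14 have several probe sets, and in 11 of them at least 1 was not above background. Over all genes with several probe sets and at least 1 above background, the share was 82.9%. In Pbx2, Pbx3 and Zfhx4 every probe set passed. The probe sets that stood for Meis2, Meox2, Pbx3 and Zfhx3, 4 of the 17, end in _s_at. Beside the representing probe sets, the 17 genes have 34 others, of which 25 were highest in replicate 9, against 45.3% of the other probe sets of all genes above background. The probe sets of Zfhx3 that passed agreed on the order of replicate 9: the other 2 gave 3031, 2182 and 5771, and 1103, 1319 and 2832. For Zfhx4 the other probe set gave 3481, 2008 and 4883. In Prrx1 they opposed each other. The representing probe set and a second one (1724, 1518 and 909) were lowest in replicate 9. All others of its 6 probe sets were highest there, the brightest at 694, 525 and 2281 and at 798, 941 and 1292. None of these others passed on every array. Meis1 likewise had a second probe set at 1626, 1583 and 3617, while its representing probe set was lowest in replicate 9.

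**Figure D4:**
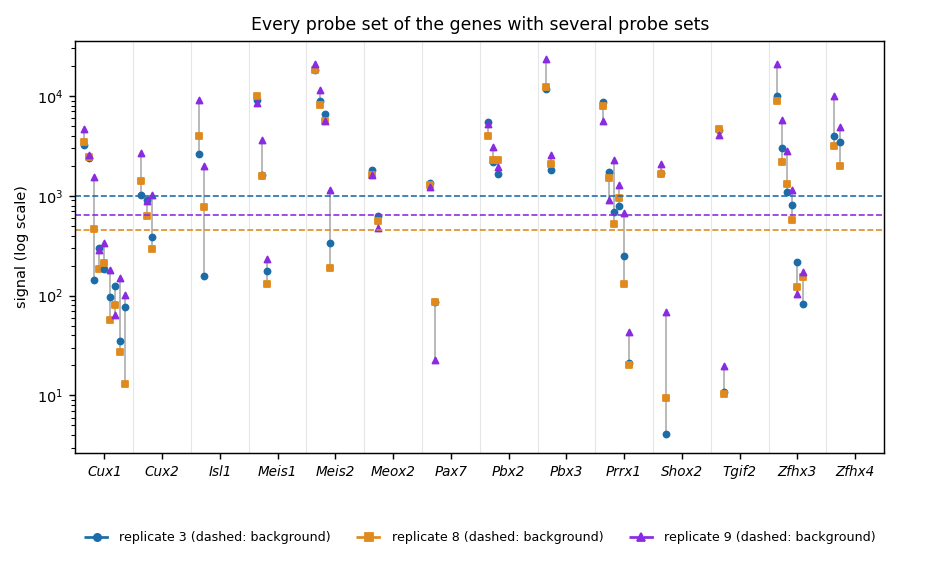
Signal on each array (log scale) of every probe set of the 14 homeobox genes above background that have several, in falling order of mean within a gene, with grey lines from lowest to highest array and dashed lines at each array's background level. The 9 probe sets of Cux1 run from a mean of 3795 down to 63.9, and both probe sets of Zfhx4 lie above the lines on all arrays.

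Neighbouring members on a chromosome were compared in pairs with at most 5 other protein-coding genes between them. There were 17 such pairs, and no pair had both genes above background on all arrays. Irx3 was the one gene of any pair that was, and its neighbours Irx5 and Irx6 passed on 1 array and on none. In the Dlx1 and Dlx2, Dlx3 and Dlx4, Dlx5 and Dlx6, Hmx2 and Hmx3, and Nkx2-2 and Nkx2-4 pairs both genes were below background on every array. Several pairs share a gene, and most include an NK-like gene, a class with no member above background on all arrays. The same count was not made for neighbouring pairs of all genes, so it shows nothing particular to neighbours.

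The 250 bases upstream were available for 66 starts of 55 members, and 19 members had no entry. Member stretches held a median of 16 CG dinucleotides (1 to 40), against 12 for all 18110 stretches of measured genes. Among members, those above background had a median of 13 (19 stretches of 14 genes) and those above it on no array 17 (41 stretches of 35 genes). Over all measured genes the order was the other way, 16 above background and 7 for the rest, which include genes above it on 1 or 2 arrays. Members above it on 1 or 2 arrays had a median of 18 (6 stretches). Several of the 19 member stretches are starts of Tgif1. The motif TATAAA, searched on both strands, was in 4 of the 19 stretches (21.1%), those of Cux2, Meis2, Meox2 and Shox2, and in 6.63% of the stretches of all genes above background. CCAAT was in 4 of the 19 (21.1%) against 35.1%. TGACAG, the core bound by Meis proteins, was in 1 of them (5.26%) against 13.4%, and TAATTA, a core of many homeodomains, in 1 (5.26%, Prrx1) against 2.46%. These searches describe the letters in the window and do not show binding.

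Other homeobox genes, from a list of 98 outside these families, were above background for 11 of 81 measured (13.6%), against the 44.7% of all named genes. They included the zinc finger repressor genes Zeb1 (18736, 13199 and 12302) and Zeb2 (5476, 5338 and 3781), Zhx1 (9171, 12329 and 8583) and the teashirt gene Tshz2 (10188, 6730 and 6412). Of the 11, 7 were lowest in replicate 9, among them these 4, and 2 were highest there, Adnp2 (1469, 2177 and 2528) and Tshz1 (2855, 2871 and 2987). Onecut3 and Cdx1, below background on every array, had means of 3.19 and 6.95. With the 90th percentile as the line 27 of the 81 passed, and without replicate 3, 20 did.

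Genes of proteins that work with homeodomain proteins were above background for 22 of 28 (78.6%), against the same 44.7%. They included the corepressor gene Ctbp1 (32494, 29291 and 38830), the deacetylase gene Hdac2 (16100, 21814 and 14971), the kinase gene Hipk2 (18064, 16094 and 16323) and Smad3, whose product binds Tgif proteins (12436, 10604 and 14411). Lmo3 and Ssbp4 had means of 156 ± 11.8 and 320 ± 98.8. The LIM cofactor genes (chosen with their values in view) differed: Ldb2 had signals of 1794, 3129 and 4739, the same order of arrays as Isl1, and Ldb1 was below background on every array at 399, 250 and 336. That order was found in 6 of the 28 partner genes and in 15 of the 81 other homeobox genes, so it is not particular to Ldb2. Of the Lmo and Ssbp genes in the list, only Lmo3, below background on every array, had it. A link between Ldb2 and Isl1 was not tested.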

How the data were processed

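The authors deposited 1 linear intensity per probe set and array for 45101 probe sets, per the labels made with GCOS, with no version or settings stated. How background was handled is not given in the sources used here. The 2% trimmed mean was 1500 on each array, so arrays had been scaled to a common mean. The median signal was 234, 198 and 273 in replicates 3, 8 and 9, and the number of arrays limits the precision. Brightness depends on the probes as well as on the transcript, so signals of different probe sets do not rank transcripts. They served to pick a probe set per gene and genes to name.

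Platform annotation gave 34958 probe sets with 1 symbol, 932 with several and 9211 without. By Entrez ID 34750 matched the reference gene table (GRCm38.p6), which changed none, and all 74 members matched. Values were analysed as log2(signal + 1) with Python 3.11.15, pandas 2.3.3 and scipy 1.17.1. The background list had 58 genes, 54 measured. The calling code was also run on simulated data built from the levels of the reference list itself. That run checks the code and says nothing on whether the background line is right. No test was run, since there is 1 group. Protein sequences were not used here. Members, lists and rules were chosen with earlier results of these data known. Every member is accounted for. Values by array are given for up to 5 genes per class above background, for members with a range of at least 1, for those passing on 1 or 2 arrays beside a named paralog, and for neighbours. Other members are named to complete their families, and of other lists up to 4 bright and 2 dim genes. The alternatives covered pseudocounts of 16 and 64, quantile normalization, averaging of probe sets, no probe sets ending in _x_at or _s_at, other background levels, 2 arrays, no filter, and leaving out each replicate.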

Additional observations from a re-analysis of the deposited data

How the results depend on the processing

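No paired analysis was possible because the samples form 1 group. The 17 members above background were the same genes under quantile normalization and both other pseudocounts. With the mean of probe sets the count was 16, of which 13 were shared. Cux1, Pax7, Shox2 and Tgif2 were lost there, and Emx2, Irx2 and Prrx2 entered. The count was 15 after dropping _x_at and _s_at probe sets, where Cux2 and Meox2 were lost. It was 10 with the 99th percentile, 18 without exocrine pancreas genes in the reference list, 19 with 2 arrays required, and 25 both with the 90th percentile and without Rpgrip1, Tff1 and Iyd in that list, a setting added once the data had been seen.

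The class counts moved as follows. NK-like genes had 1 above background with the mean of probe sets, and 3 with the 90th percentile and without Rpgrip1, Tff1 and Iyd. Paired and paired-like genes had 5 under those last 2 settings and with 2 arrays required, and 1 with the 99th percentile. Cut genes had 1 with the mean of probe sets, without _x_at and _s_at probe sets, and with the 99th percentile. Meox genes had 1 without such probe sets and 0 with the 99th percentile. Members with a range of at least 1 numbered 7 with the 90th percentile and without Rpgrip1, Tff1 and Iyd, and 35 with no filter. The other homeobox genes numbered 27 with the 90th percentile, 25 without Rpgrip1, Tff1 and Iyd, and 20 with 2 arrays required. Members highest in replicate 9, a count added after seeing the data, numbered 6 of 10 with the 99th percentile and 10 to 16 in the other alternatives. Most of these moves follow from the line itself being higher or lower.

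Leaving out 1 replicate at a time gave 17 to 19 members above background (Alx1 and Prrx2 entered without replicate 3), 3 to 5 paired and paired-like genes, 11 to 20 other homeobox genes, 0 to 4 members with a range of at least 1, and 11 to 14 highest in replicate 9. The mean log2 signal of 13 of the 17 members moved by more than 1 SD with the mean of probe sets, and of 4 without _x_at and _s_at probe sets. Partner, TALE, LIM and zinc finger counts stayed within 1.5 times in the alternatives run.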
